A study of Macaca fascicularis with 23 samples.

Results

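The liver transcriptome of cynomolgus monkeys given a daily ciprofibrate dose of 400 mg/kg over 15 days was set against that of monkeys given 3 mg/kg over the same time, the highest and the lowest dose of the study. The comparison held 8 of the study's 23 arrays, chosen by the dose and duration in their titles, with 4 animals at 400 mg/kg/day and 4 at 3 mg/kg/day and 1 array per animal. No vehicle animal entered the contrast. The other animals were 4 at 30 mg/kg/day, 4 at 150 mg/kg/day and 3 on vehicle with 15 days of dosing, and 2 at 400 mg/kg/day and 2 on vehicle with 4 days of dosing. Both groups of the contrast received the drug, so a gene that both doses moved equally from vehicle does not appear in it. The sources used here do not state sex, age or route of dosing. Tissue was the right lateral liver lobe, and each value is the hybridisation intensity of a probe set, a group of short probes for 1 transcript.

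Ciprofibrate is a fibrate, a class of lipid-lowering drugs that bind and activate PPAR-alpha, a nuclear receptor abundant in the liver. Activated PPAR-alpha pairs with the retinoid X receptor on DNA and switches on genes for fatty acid uptake, binding, desaturation and oxidation in mitochondria and peroxisomes. In rodents this response brings many new peroxisomes and liver growth, and it is known to be weaker in primates.

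The probes were designed on human transcripts, so intensities of different probe sets do not give relative amounts, and the summed levels of marker lists below add probe sets of unequal response. Array medians were close, between 55 and 63 at 400 mg/kg/day and between 57.15 and 65.55 at 3 mg/kg/day. The mean correlation of an array with the others of its group was 0.907 to 0.912 at 400 mg/kg/day and 0.873 to 0.883 at 3 mg/kg/day, against a mean of 0.864 between the groups. The ratio between the 5′ and the 3′ control probe set, a sign of RNA integrity, was 0.681 ± 0.126 at 400 mg/kg/day and 0.763 ± 0.182 at 3 mg/kg/day for ACTB (SD, n = 4 each, exact permutation p = 0.514, two-sided). For GAPDH it was 1.11 ± 0.123 at 400 mg/kg/day and 1.32 ± 0.188 at 3 mg/kg/day (SD, n = 4 each, exact permutation p = 0.114, 0.229 after adjustment over both ratios). The smallest p that 70 regroupings allow is 0.0286. Of 14 listed hepatocyte markers 13 were tested, 9 with a negative difference, 3 of them called lower, and 4 with a positive one. Their summed level was 68690 to 81418 at 400 mg/kg/day and 98713 to 135530 at 3 mg/kg/day. That sum includes the called genes CYP2E1 (means of 1479 and 17277) and APOB (4953 and 12366), while ALB averaged 23610 and 24005.

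Of 7535 probe sets tested, 315 differed between 400 and 3 mg/kg/day at an adjusted p under 0.05 (4.18%), 145 higher and 170 lower at 400 mg/kg/day. With every array scaled to the same median the split was 159 higher and 118 lower. A fit of the 8 arrays alone, in which the other 15 animals lent nothing to the estimate of spread, called 250, of which 216 were among the 315. Each gene was represented by its brightest tested probe set. Of 5462 genes, 103 rose (1.89%) and 126 fell (2.31%), with median log2 changes of 0.92 and -1.03. The arrays of the 2 groups did not overlap in 613 genes (11.2%). They did not overlap in 287 of the 315 called probe sets either, so separate groups are usual among called genes and add no further support. The largest rises and falls described below were picked among called genes with separate groups. The median log2 change of all genes was 0.01. Changes are on the log2(intensity + 16) scale, which understates those of dim probe sets.

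The desaturase genes FADS2 and SCD had the 2 largest rises of all genes tested. Of 23 listed genes of fatty acid and triglyceride synthesis 15 were tested, and 5 rose, 1 fell and 9 were not called, with a list median of 0.84. FADS2, the delta-6 desaturase that starts the conversion of linoleic and alpha-linolenic acid to longer polyunsaturated fatty acids, had intensities of 1112.2, 1052.4, 1074.6 and 647 at 400 mg/kg/day, against 14, 13.7, 25.8 and 11.9 at 3 mg/kg/day. Every animal at the low dose lay below 39.7, the intensity of the filter's limit, so the low level was not shown to exceed background, and the fitted size varied with the pseudocount. The log2 rise was 4.92 ± 0.59 (SE, adjusted p = 1.91e-05), and 3.66 to 5.84 over all alternatives. SCD, which places the first double bond in saturated fatty acids, had 591.5, 1557.4, 733.4 and 1480.6 at 400 mg/kg/day and 55.7, 43, 66.6 and 38.4 at 3 mg/kg/day, a rise of 3.95 ± 0.54 (SE, adjusted p = 8.5e-05). The lowest animal at the high dose was far above the highest at the low dose. Low-dose values of SCD lay near the filter's limit or below it, and the fitted rise ran from 3.2 to 4.3 over all alternatives.

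ELOVL5, an elongase that works between the desaturases of the polyunsaturated pathway, had 587.9, 680.2, 416.6 and 602.2 at 400 mg/kg/day, against 91.8, 127.1, 149.3 and 86.5 at 3 mg/kg/day, and rose by 2.19 ± 0.24 (SE, adjusted p = 8.28e-06). ME1, the cytosolic malic enzyme that supplies NADPH for lipid synthesis, had 745.1, 470.4, 604.4 and 465.3 at 400 mg/kg/day and 202.4, 193, 171.4 and 105.9 at 3 mg/kg/day, and rose by 1.68 ± 0.26 (SE, adjusted p = 0.000317). A second ME1 probe set rose by 2.18 ± 0.28 (SE). SREBF1, which encodes the transcription factor SREBP-1 that drives lipogenic genes, rose by 0.91 ± 0.17 (SE, adjusted p = 0.00219), with 824 at 400 mg/kg/day and 428 at 3 mg/kg/day on average. In all 3 genes the groups were separate. DGAT1, which attaches the last acyl chain of triglycerides, had 292.9, 240.9, 256.5 and 171 at 400 mg/kg/day and 736.6, 800.9, 327.6 and 888.6 at 3 mg/kg/day. It fell by 1.39 ± 0.39 (SE, adjusted p = 0.043), a call that ended in 7 of the 8 fits that each left out 1 animal, with adjusted p up to 0.124, and held only without 3 mg/kg/day replicate 3.

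**Figure D1:**
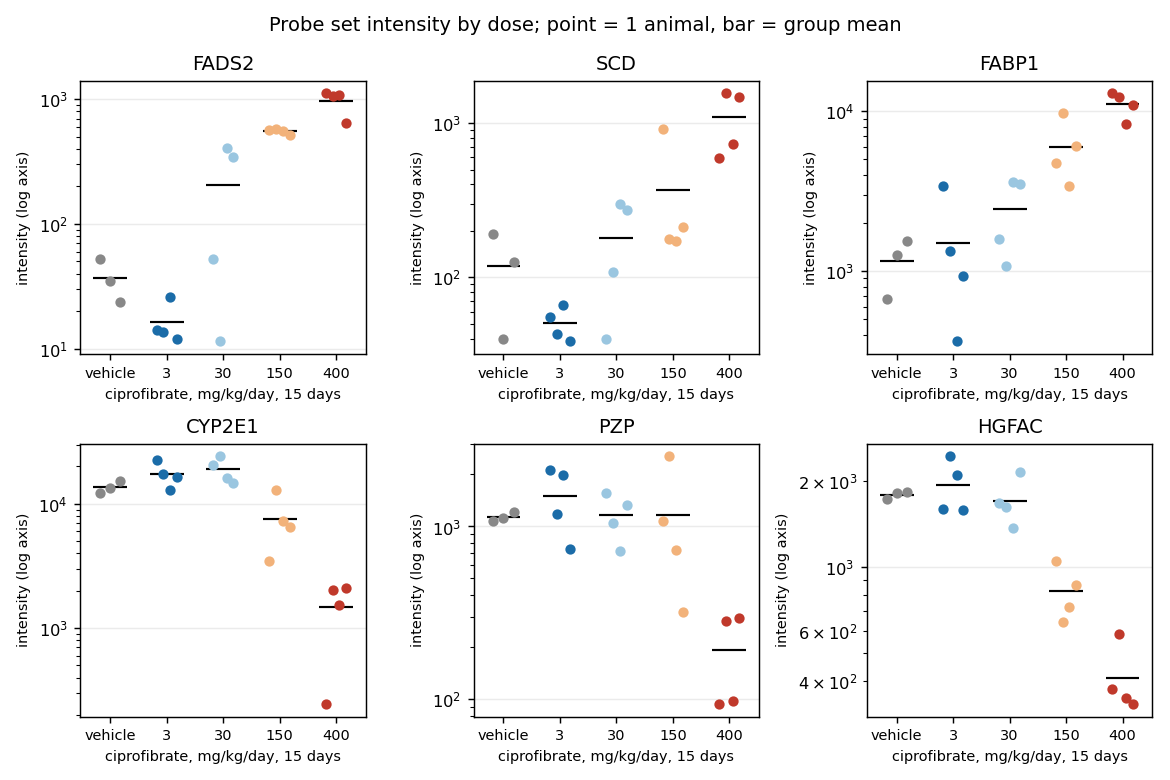
Intensity of 3 genes that rose (FADS2, SCD, FABP1) and 3 that fell (CYP2E1, PZP, HGFAC) between 3 and 400 mg/kg/day, on log axes, for vehicle and each dose after 15 days. Each point is 1 animal and each bar a group mean. All 4 animals at 400 mg/kg/day stood apart from all 4 at 3 mg/kg/day in each gene, as is usual among called genes. CYP2E1 ran from 244.1 to 2091.5 at 400 mg/kg/day and from 12967.8 to 22342 at 3 mg/kg/day.

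PPAR-alpha targets were tested for 17 of 30 listed genes, of which 4 rose and 12 were not called, with a median of 0.73. The 1 that fell was PPARA, the receptor gene, which the list includes. FABP1, the liver fatty acid binding protein that carries fatty acids in the cytosol, had 12948, 12257.5, 8308.2 and 10953.4 at 400 mg/kg/day and 3414.1, 1329.5, 362.5 and 929.9 at 3 mg/kg/day. The low-dose animals themselves spread widely, yet all lay below the high-dose animals, and the rise was 3.28 ± 0.49 (SE, adjusted p = 0.00024). The other rising members were FADS2, HADHB and VNN1. VNN1, a pantetheinase, had 208.6, 154.2, 300.7 and 228 at 400 mg/kg/day and 45.3, 116.6, 139.5 and 110.8 at 3 mg/kg/day and rose by 1.05 ± 0.29 (SE, adjusted p = 0.0356). Its call ended in 5 of the 8 fits without 1 animal, those without 400 mg/kg/day replicates 1, 3 and 4 and without 3 mg/kg/day replicates 1 and 4 (adjusted p up to 0.138).

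Other known targets were not called. PLIN2, which coats lipid droplets, had 694.5, 367.2, 467.2 and 492.4 at 400 mg/kg/day and 265.6, 235.4, 156.2 and 304.8 at 3 mg/kg/day, with groups that did not overlap and an adjusted p of 0.148. CAT, the peroxisomal catalase, had a log2 difference of 0.91 ± 0.33 (SE, adjusted p = 0.135). For PDK4, a kinase that turns off pyruvate dehydrogenase, the difference was 0.39 ± 0.35 (SE, adjusted p = 0.639). CPT1A, which admits long-chain fatty acids to mitochondria, had 129.7, 171.1, 169.8 and 169.3 at 400 mg/kg/day and 234.3, 141.7, 65.4 and 159.1 at 3 mg/kg/day, and the low-dose animals bracketed the high-dose ones. The receptor gene itself fell: PPARA had 479.6, 420.6, 523.6 and 419.2 at 400 mg/kg/day and 692.9, 911.2, 894.1 and 1037.2 at 3 mg/kg/day, and fell by 0.91 ± 0.19 (SE, adjusted p = 0.00499).

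Mitochondrial fatty acid oxidation was measured with 19 of 25 listed genes, of which 6 rose and 0 fell, with a median of 0.41. Under the 8 fits without 1 animal, 5 to 7 rose. ACAA2, the thiolase of the last step of beta-oxidation, had 10762.7, 9374.7, 11415.6 and 11150.7 at 400 mg/kg/day, against 4551.9, 5208.9, 3988.6 and 4174.7 at 3 mg/kg/day, and rose by 1.25 ± 0.19 (SE, adjusted p = 0.00024). HADHB, the thiolase subunit of the mitochondrial trifunctional protein, had 7100.3, 7435.6, 6346.4 and 5533.2 at 400 mg/kg/day and 3821.2, 2993.7, 1594.8 and 1652.7 at 3 mg/kg/day, a rise of 1.48 ± 0.27 (SE, adjusted p = 0.002). SLC22A5, the carnitine transporter OCTN2 that brings in the carrier for fatty acids, had 1201, 502.5, 817.9 and 538.8 at 400 mg/kg/day and 190.5, 258.2, 227.1 and 153.1 at 3 mg/kg/day and rose by 1.74 ± 0.36 (SE, adjusted p = 0.0058). ETFA, which passes electrons from the acyl-CoA dehydrogenases to the respiratory chain, rose by 0.92 ± 0.17, and HADH, the hydroxyacyl-CoA dehydrogenase, by 0.86 ± 0.19. Groups were separate in all 5 genes. Peroxisomal oxidation and assembly, with 13 of 27 genes tested, had 0 called and a median of 0.29, and its differences ran from -0.63 for ACOX2 to 0.91 for CAT. The 2 tested ketone body enzymes, BDH1 and ACAT1, had differences of 0.67 and 0.23, neither called.

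**Figure D2:**
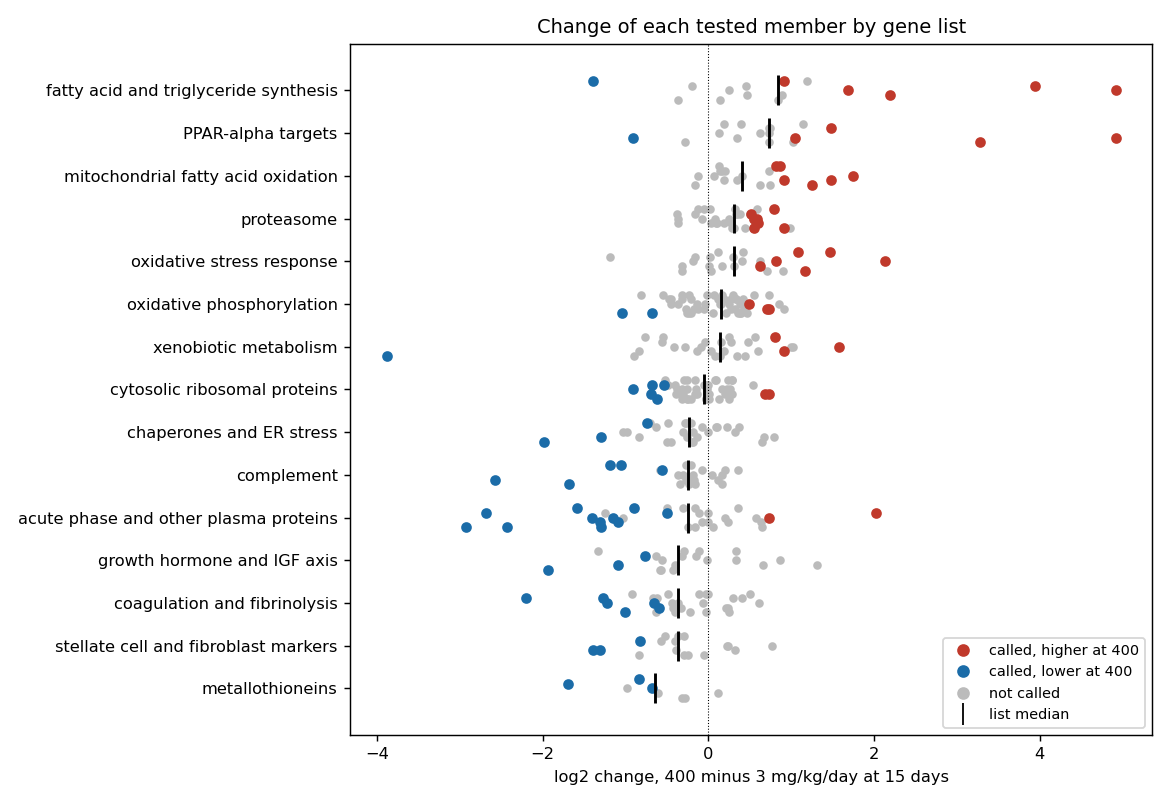
Log2 change of each tested gene between 400 and 3 mg/kg/day for 15 gene lists. Red points were called higher at 400 mg/kg/day, blue points called lower and grey points not called, and the black bar is the list median. The medians run from 0.84 for fatty acid and triglyceride synthesis to -0.65 for metallothioneins.

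In the oxidative stress list 6 of 23 tested genes rose and 0 fell, with a median of 0.31, while leaving out any 1 animal at 400 mg/kg/day left 3. NQO1, a quinone reductase, had 1819.9, 1207.5, 1077 and 924.3 at 400 mg/kg/day and 204.6, 228.1, 247.4 and 425.8 at 3 mg/kg/day, and rose by 2.13 ± 0.23 (SE, adjusted p = 7.1e-06). TXN, thioredoxin, had 2143.2, 1387.5, 1560.8 and 2064.6 at 400 mg/kg/day and 606, 708.5, 866.3 and 984.7 at 3 mg/kg/day and rose by 1.16 ± 0.17 (SE, adjusted p = 0.000235). GPX4, which reduces lipid hydroperoxides in membranes, rose by 0.82 ± 0.17 (SE, adjusted p = 0.00532). All 4 animals at 400 mg/kg/day lay above all 4 at 3 mg/kg/day in each. Calls of PRDX1, a peroxiredoxin, and FTL, the ferritin light chain, ended in 7 of the 8 fits without 1 animal (adjusted p up to 0.128 for PRDX1 and 0.094 for FTL), PRDX1 keeping its call only without 3 mg/kg/day replicate 4 and FTL likewise.

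Among 17 tested aldehyde and alcohol dehydrogenases and aldo-keto reductases 2 rose and 0 fell, and the median was -0.13. AKR1B10, an aldo-keto reductase that reduces aldehydes and retinal, had 902.6, 407.2, 405.4 and 739 at 400 mg/kg/day and 77.3, 75.9, 67.8 and 47.1 at 3 mg/kg/day, a rise of 2.85 ± 0.37 (SE, adjusted p = 4.82e-05). ALDH1A1, which oxidises retinal and other aldehydes, had 7456.9, 7185.5, 7528 and 4538.4 at 400 mg/kg/day and 1857, 1706.7, 2795 and 1344.1 at 3 mg/kg/day, a rise of 1.81 ± 0.24 (SE, adjusted p = 4.88e-05). Both genes were clear of overlap, and replicate 4 was the lowest high-dose animal for ALDH1A1.

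CYP2E1, the cytochrome P450 that oxidises ethanol and other small molecules, had the largest fall of all genes tested. Its intensities were 244.1, 2035.6, 1544.8 and 2091.5 at 400 mg/kg/day, against 22342, 17475.5, 12967.8 and 16323.2 at 3 mg/kg/day. It fell by 3.88 ± 0.45 (SE, adjusted p = 1.48e-05), and with the lowest animal, 400 mg/kg/day replicate 1, left out the change was -3.17 with an adjusted p of 1.01e-06. A second CYP2E1 probe set had -3.00 ± 0.41 (SE). The xenobiotic list as a whole, with 28 of 47 genes tested, had 3 higher and 1 lower and a median of 0.14, and it had 5 higher without 3 mg/kg/day replicate 3 and 2 lower without 400 mg/kg/day replicate 1 or 3 mg/kg/day replicate 4. CYP3A4, the main drug-oxidising P450, had 3237.6, 7650.6, 7232.7 and 3800.8 at 400 mg/kg/day and 1594.5, 1845.5, 2529.7 and 1142.3 at 3 mg/kg/day, with separate groups. It rose by 1.57 ± 0.24 (SE, adjusted p = 0.00031), though its probe set may also bind transcripts of other CYP3A genes. EPHX1, microsomal epoxide hydrolase, rose by 0.92 ± 0.19 (SE, adjusted p = 0.00499).

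The proteasome, which degrades ubiquitin-tagged proteins, was measured with 34 of 41 listed genes. Of these 7 rose and 0 fell, and the median was 0.31. The 20S core subunits PSMB4, PSMB3 and PSMB5 rose by 0.91 ± 0.22, 0.79 ± 0.18 and 0.60 ± 0.13. PSMB4 had 958.1, 926.6, 916.7 and 989 at 400 mg/kg/day and 486.8, 482.8, 481.7 and 533.3 at 3 mg/kg/day, the animals of each group lying close together and the groups far apart, and a second PSMB4 probe set rose by 0.97. The count varied with the animals used: 3 rose in the fit of the 8 arrays alone and without the intensity trend, 3 without 400 mg/kg/day replicate 1 or 3 or without 3 mg/kg/day replicate 2, and 4 without 400 mg/kg/day replicate 4 or 3 mg/kg/day replicate 3. Fitting the 8 arrays with a replicate block, a term for the replicate number, left 1.

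Hepatocytes export plasma proteins in bulk, and 3 lists of such proteins had larger shares of falls than the 2.31% of all genes. The lists were chosen with earlier results of these data known, so these shares are not independent support. Acute phase and other plasma proteins had 11 of 31 tested genes lower (35.5%) and 2 higher, with a median of -0.25. Complement had 5 of 24 lower (20.8%) and 0 higher, with a median of -0.25. Coagulation and fibrinolysis had 6 of 30 lower (20%) and 0 higher, with a median of -0.37. Under the 8 fits without 1 animal the counts of falls were 8 to 10, 4 to 5 and 5 to 7. With the replicate block they were 8, 4 and 3.

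PZP, a protease-trapping relative of alpha-2-macroglobulin, had 93.7, 284.7, 98 and 294.8 at 400 mg/kg/day and 2134.4, 1184.8, 1981.6 and 736.6 at 3 mg/kg/day, and fell by 2.92 ± 0.47 (SE, adjusted p = 0.000489). SPP2, a secreted phosphoprotein found in bone and plasma, had 60.9, 43.9, 41.5 and 16.2 at 400 mg/kg/day and 273.7, 387.2, 464.8 and 239.5 at 3 mg/kg/day, and fell by 2.68 ± 0.34 (SE, adjusted p = 4.01e-05). In both genes the groups were far apart. High-dose values of SPP2 lay near the filter's limit or below it, and the change ran from -1.94 to -3.13 over the alternatives. ITIH2, a heavy chain of the inter-alpha-trypsin inhibitors that bind hyaluronan, had 1150.7, 1150.3, 1150.7 and 939.8 at 400 mg/kg/day and 2880.1, 4088.2, 3748.1 and 2755.3 at 3 mg/kg/day, with the first 3 high-dose animals nearly equal, and fell by 1.59 ± 0.21 (SE, adjusted p = 6.61e-05). HPX, hemopexin, which binds free haem, had 3180.5, 3830.1, 4578.9 and 6451 at 400 mg/kg/day and 13842.5, 10932.3, 10817.9 and 10847.1 at 3 mg/kg/day and fell by 1.40 ± 0.25 (SE, adjusted p = 0.00183). AGT, angiotensinogen, had 226.8, 219.6, 284.1 and 251.5 at 400 mg/kg/day and 618.4, 605.4, 663.7 and 629.5 at 3 mg/kg/day. It fell by 1.31 ± 0.19 (SE, adjusted p = 0.000135) with little spread in either group.

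LCN2, a lipocalin that binds bacterial iron carriers, went the other way, with 202.3, 154.6, 162.6 and 87.3 at 400 mg/kg/day and 11.1, 22.8, 12.8 and 67.6 at 3 mg/kg/day, a rise of 2.02 ± 0.38 (SE, adjusted p = 0.00238). Of the low-dose animals 3 lay below the filter's intensity limit. SERPINA6, the cortisol-binding globulin, had 1653.1, 1636.1, 1616.1 and 1600.7 at 400 mg/kg/day and 739, 1072.2, 1495.2 and 746.7 at 3 mg/kg/day and rose by 0.74 ± 0.20 (SE, adjusted p = 0.0339). Its call ended in 6 of the 8 fits without 1 animal, all but those without 3 mg/kg/day replicates 2 and 3 (adjusted p up to 0.125).

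In the complement cascade C8B and C8A, chains of the eighth component that helps form the membrane attack complex, fell by 1.69 and 1.19 on the log2 scale. C8B had 107.6, 165.3, 156.4 and 135.8 at 400 mg/kg/day and 376.1, 504.3, 550 and 531.7 at 3 mg/kg/day. CFB, the protease of the alternative pathway, had 3226.5, 2851.4, 3071.8 and 4159.8 at 400 mg/kg/day and 8426, 6219.9, 6579.6 and 6389.9 at 3 mg/kg/day and fell by 1.05 ± 0.14 (SE, adjusted p = 6.9e-05). CFHR4, a factor H-related protein, had 148.3, 22.8, 126 and 164.6 at 400 mg/kg/day and 304.8, 709.1, 1320.5 and 640.3 at 3 mg/kg/day, and fell by 2.57 ± 0.47 (SE, adjusted p = 0.00198). No animal crossed between the groups in these genes.

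In coagulation the largest fall was that of HGFAC, the serine protease that activates hepatocyte growth factor, with 375.1, 583.3, 349.2 and 332.5 at 400 mg/kg/day and 1596, 2435.7, 2099.4 and 1583.7 at 3 mg/kg/day, and it fell by 2.20 ± 0.19 (SE, adjusted p = 2.11e-07). F12, the zymogen that starts contact activation, had 1319, 1760.7, 1763.3 and 1163.3 at 400 mg/kg/day and 3882.8, 3778.5, 3044.1 and 3726.9 at 3 mg/kg/day and fell by 1.27 ± 0.20 (SE, adjusted p = 0.000477). F11, its downstream zymogen, had a change of -1.23 ± 0.26, KLKB1, plasma prekallikrein, an adjusted p of 0.0123 for its fall, and SERPINF2, the plasmin inhibitor, a change of -0.59 ± 0.14. F12, F11 and KLKB1 are all members of the contact pathway, and their groups did not overlap. The call of KLKB1 ended without 400 mg/kg/day replicate 4 (adjusted p = 0.0549). Outside the list, FGL1, a fibrinogen-like hepatokine, had 217.4, 223.7, 329.4 and 949.7 at 400 mg/kg/day and 2935, 1790.7, 2072.9 and 1412.5 at 3 mg/kg/day, and fell by 2.43 ± 0.49 (SE, adjusted p = 0.0043).

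**Figure D3:**
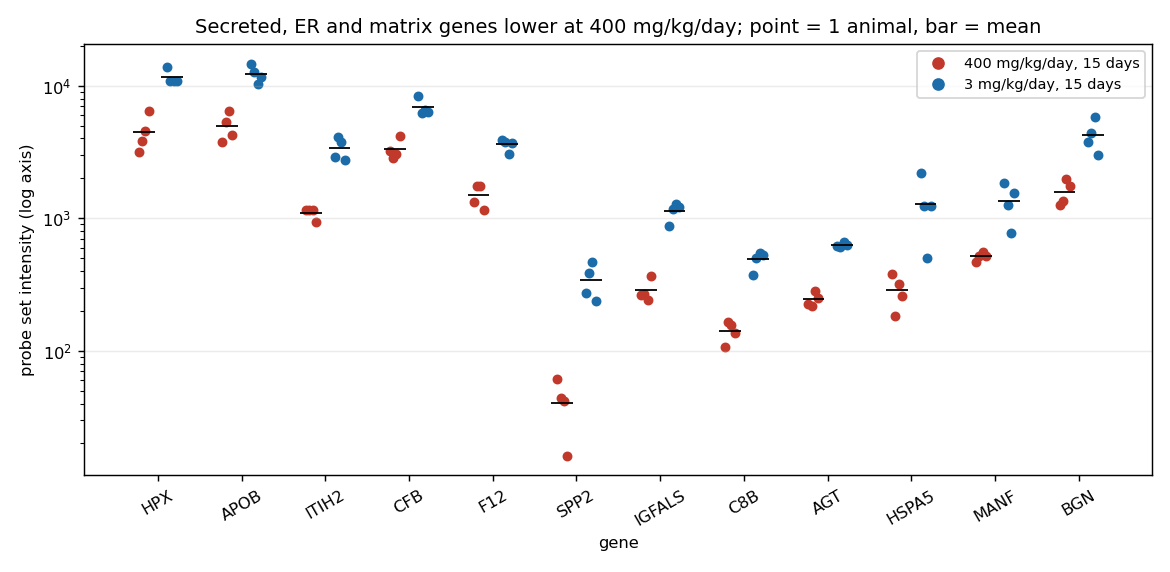
Intensity on a log axis of 12 genes that fell, from plasma protein, lipoprotein, complement, growth factor, ER and matrix genes. Each point is 1 animal, with the 4 animals at 400 mg/kg/day in red on the left of each pair, the 4 at 3 mg/kg/day in blue on the right, and bars at the means. In all 12 genes each animal at 400 mg/kg/day lies below each at 3 mg/kg/day, as is usual among called genes. For HPX the ranges are 3180.5 to 6451 against 10817.9 to 13842.5.

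Growth hormone and IGF genes fell for 3 of 20 tested members and rose for 0, with a median of -0.36. With the replicate block 1 fell. IGFALS, the acid-labile subunit that keeps IGF in the circulation, had 263.8, 269.1, 242.8 and 368.8 at 400 mg/kg/day and 873.8, 1182.6, 1270.8 and 1223.3 at 3 mg/kg/day and fell by 1.94 ± 0.30 (SE, adjusted p = 0.00033). IGF1 had a change of -1.10 ± 0.28 (SE, adjusted p = 0.0243) and IGFBP3, the main carrier of IGF in plasma, one of -0.76 ± 0.18 (SE, adjusted p = 0.0127). Other probe sets of IGF1 had -1.22 (adjusted p = 0.1) and -0.89 (adjusted p = 0.459) and 1 of IGFBP3 had -0.44 (adjusted p = 0.176), none called. Without 400 mg/kg/day replicate 1 IGFALS alone of the 3 was called (adjusted p of 0.107 for IGF1 and 0.0599 for IGFBP3), and IGF1 also lost its call without 400 mg/kg/day replicate 3 (0.0745) and without 3 mg/kg/day replicate 3 (0.0784).

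Apolipoproteins and lipoprotein remodelling genes were called for 4 of 16 tested members, 1 higher and 3 lower, with a median of -0.08. With the replicate block 1 was higher and 1 lower. APOB, the structural protein of VLDL and LDL, had 3791, 5358, 6441.7 and 4221.3 at 400 mg/kg/day and 14699.6, 12805, 10244.9 and 11715.2 at 3 mg/kg/day, and fell by 1.34 ± 0.24 (SE, adjusted p = 0.00151). A second APOB probe set had -0.75 ± 0.18 (SE). PLTP, the phospholipid transfer protein, had a change of -0.73 ± 0.15 (SE, adjusted p = 0.00616). APOC1 had 2435.7, 1945.3, 1910.6 and 1581.1 at 400 mg/kg/day and 1111.3, 1142.4, 1392.3 and 649.4 at 3 mg/kg/day and rose by 0.90 ± 0.21 (SE, adjusted p = 0.0114), a call that ended without 400 mg/kg/day replicate 1 (adjusted p = 0.051). APOA4 had 16.2, 43, 78.8 and 44.4 at 400 mg/kg/day and 416.7, 1020.4, 45.8 and 979.6 at 3 mg/kg/day. Its groups overlapped through replicate 3 of the low dose, without which the change was -3.73, against -2.83 with all animals. The APOA4 call ended without 3 mg/kg/day replicate 2 (adjusted p = 0.0552), without 3 mg/kg/day replicate 4 (0.0594) and without 400 mg/kg/day replicate 1 (0.0531). It also ended in the fit of the 8 arrays alone, with adjusted p up to 0.0846 over all alternatives. High-dose values of APOA4 lay near the filter's limit or below it, and the change ran from -2.20 to -3.73 over the alternatives. APOA1 and APOC3, apolipoproteins of HDL and of triglyceride-rich particles, had uncalled differences of -0.48 ± 0.17 (SE, adjusted p = 0.125) and -0.12 ± 0.17 (SE, adjusted p = 0.771).

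Chaperones and ER stress genes had 3 of 30 tested members lower and 0 higher, with a median of -0.23, and 5 lower without 3 mg/kg/day replicate 3. Relative to vehicle at 15 days the list median was 0.40 at 3 mg/kg/day and 0.16 at 400 mg/kg/day, so it was above vehicle at both doses. HSPA5, the ER chaperone BiP, had 380.7, 183.3, 321.9 and 260.7 at 400 mg/kg/day and 2205.6, 1232.1, 503.4 and 1230.4 at 3 mg/kg/day, and fell by 1.98 ± 0.38 (SE, adjusted p = 0.00255). MANF, a secreted protein of the ER stress response, had 471.2, 516.9, 554.3 and 522.2 at 400 mg/kg/day and 1836.9, 1263.1, 771.1 and 1554.6 at 3 mg/kg/day, and fell by 1.30 ± 0.23 (SE, adjusted p = 0.0015). PDIA4, a disulfide isomerase of the ER, had a change of -0.74 ± 0.15 (SE, adjusted p = 0.0043). The high-dose animals were below the low-dose animals in all 3, and among the low-dose animals replicate 1 was the highest and replicate 3 the lowest in each.

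In oxidative phosphorylation 48 of 53 tested genes were not called, 3 rose (5.66%, against 1.89% of all genes) and 2 fell (3.77%, against 2.31%), with a median of 0.16, and without the intensity trend 1 rose and 1 fell. SDHA, the flavoprotein of complex II, had 1154.5, 976.6, 1221.6 and 981.1 at 400 mg/kg/day and 2547.8, 2124.7, 1608.2 and 2837.5 at 3 mg/kg/day and fell by 1.04 ± 0.15 (SE, adjusted p = 0.000196). COX6A1, a subunit of cytochrome oxidase, had 13881, 14397.9, 16219.3 and 14071.4 at 400 mg/kg/day and 9253.7, 8659.2, 8622.4 and 9344.6 at 3 mg/kg/day and rose by 0.70 ± 0.12 (SE, adjusted p = 0.00143). The calls of NDUFA2, ATP5ME and ATP5F1A ended in 6, 5 and 3 of the 8 fits without 1 animal, with adjusted p up to 0.121, 0.127 and 0.0702. Of the list 1 rose without 400 mg/kg/day replicate 3 or 3 mg/kg/day replicate 1, 3 or 4, and 1 fell under median scaling and without 400 mg/kg/day replicate 2 or 3 or 3 mg/kg/day replicate 4. With the replicate block 0 rose and 1 fell. Cytosolic ribosomal proteins had 5 of 47 tested genes lower and 2 higher with a median of -0.05, which median scaling of the arrays turned above 0. RPS3 had 2196.8, 2558.2, 2377.8 and 2528.9 at 400 mg/kg/day and 5310.6, 4061.2, 4317.6 and 4594.6 at 3 mg/kg/day, with separate groups, and fell by 0.91 ± 0.16 (SE, adjusted p = 0.00122), while RPL29 rose by 0.69 ± 0.15. Ribosomal protein genes have many near-identical copies in the genome, so these values are uncertain, and 3 were lower under median scaling and without 400 mg/kg/day replicate 1 or 2, and 1 was higher without 400 mg/kg/day replicate 3. The replicate block left 1 lower and 0 higher.

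Amino acid metabolism had 3 of 27 tested genes lower and 1 higher, with a median of -0.30. GNMT, which uses up excess S-adenosylmethionine by methylating glycine, had 855.3, 607.2, 668.5 and 451.4 at 400 mg/kg/day and 1409.3, 1421.4, 1749.3 and 1450 at 3 mg/kg/day and fell by 1.23 ± 0.16 (SE, adjusted p = 4.01e-05). MAT2A, which makes S-adenosylmethionine, had a change of -1.09 ± 0.25 (SE, adjusted p = 0.0123), lost without 400 mg/kg/day replicate 1 (adjusted p = 0.0547). The MAT2A call also ended in the fit of the 8 arrays alone, with adjusted p up to 0.15 over all alternatives. GPT, alanine aminotransferase, had a change of -0.78 ± 0.16 (SE, adjusted p = 0.0058). GOT2, mitochondrial aspartate aminotransferase, rose by 0.80 ± 0.19 (SE, adjusted p = 0.0167), and its call ended without 400 mg/kg/day replicate 2 or 3 and without 3 mg/kg/day replicate 4 (adjusted p up to 0.0723). Outside the list, GLDC, the decarboxylase of the glycine cleavage system, had 10.7, 17.3, 10.8 and 9.6 at 400 mg/kg/day and 67, 121.8, 140.4 and 54.4 at 3 mg/kg/day and fell by 1.92 ± 0.45 (SE, adjusted p = 0.0126), all high-dose values being below the filter's limit. GART, a trifunctional enzyme of purine synthesis, had 23.1, 29.4, 85.8 and 20 at 400 mg/kg/day and 227.7, 209.4, 136.7 and 222 at 3 mg/kg/day and fell by 2.07 ± 0.45 (SE, adjusted p = 0.00746), with 3 of the high-dose values below that limit and a change of -1.37 to -2.53 over the alternatives.

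Metallothioneins, small proteins that bind zinc and copper, had 3 of 8 tested genes lower and a median of -0.65, and 1 lower under median scaling, without 400 mg/kg/day replicates 1, 2 or 4 or without 3 mg/kg/day replicate 4. With the replicate block 0 were lower. MT1H had 7144.4, 7250.1, 10431.9 and 9205.6 at 400 mg/kg/day and 13631.4, 12286, 14784.2 and 20625.7 at 3 mg/kg/day and fell by 0.84 ± 0.17 (SE, adjusted p = 0.00499). Metallothionein genes are near-identical and share probes, so which member changed is uncertain. SLC30A1, which exports zinc from the cell, had 1309.2, 967.4, 1334 and 1007.1 at 400 mg/kg/day and 3054.7, 2446.1, 1691.4 and 2437.8 at 3 mg/kg/day and fell by 1.03 ± 0.19 (SE, adjusted p = 0.00195). SLC39A14, which imports zinc, iron and manganese, had a change of -0.78 ± 0.17 (SE, adjusted p = 0.00855) with 1 animal overlapping. In the solute carrier list 3 of 29 tested genes fell and 2 rose (1 without 400 mg/kg/day replicate 4 or 3 mg/kg/day replicate 2), with a median of -0.03, which turned above 0 under median scaling.

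Of the genes outside these groups, BLVRB, a biliverdin and flavin reductase, had 1975.5, 1535, 2676.4 and 1467.7 at 400 mg/kg/day and 538.4, 716.3, 415.6 and 622.6 at 3 mg/kg/day and rose by 1.70 ± 0.21 (SE, adjusted p = 2.96e-05). DIO1, the deiodinase that activates thyroid hormone in liver, had 1472, 671.4, 1382.5 and 915 at 400 mg/kg/day and 232.7, 351.5, 536.7 and 273.6 at 3 mg/kg/day and rose by 1.63 ± 0.33 (SE, adjusted p = 0.00499). CCL15, a chemokine, rose by 1.63 ± 0.33 (SE, adjusted p = 0.00514) with separate groups. RAB11FIP3, an adaptor of recycling endosomes, and NUCB2, the precursor of nesfatin-1, rose by 1.77 ± 0.44 and 1.61 ± 0.41, but each call ended in 4 of the 8 fits without 1 animal (adjusted p up to 0.0754 and 0.108). ABHD2, a lipid hydrolase, GPRASP1, a receptor-sorting protein, and HYAL3, of the hyaluronidase family, had log2 changes of -1.83 ± 0.39, -1.79 ± 0.27 and -1.73 ± 0.34, with no overlap. CCND1, cyclin D1, which drives entry to the cell cycle, had 348, 226.5, 284.4 and 251.1 at 400 mg/kg/day and 1015, 773.1, 399.1 and 683.6 at 3 mg/kg/day and fell by 1.26 ± 0.24 (SE, adjusted p = 0.00231). It was the 1 called gene of 29 tested cell cycle genes, whose median was 0.05, and of its other probe sets 1 had -1.60 and 1 had -0.02.

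Kupffer cell and macrophage markers had 2 of 11 tested genes lower, with a median of -0.24, 7 of the 11 being negative. Their summed levels were 3060 to 3863 at 400 mg/kg/day and 4398 to 6326 at 3 mg/kg/day. CD14 was the largest part of these sums, averaging 1851 at 400 mg/kg/day and 3227 at 3 mg/kg/day, so they mostly follow that gene. VSIG4, another marker, averaged 366 and 376. No tested marker had a group mean of 0. MARCO, a scavenger receptor of resident macrophages, had 17, 17.6, 22.5 and 32.5 at 400 mg/kg/day and 160.9, 212.3, 160.8 and 116.2 at 3 mg/kg/day and fell by 2.21 ± 0.46 (SE, adjusted p = 0.00608). All 4 high-dose values lay below the filter's limit, so that level was not shown to exceed background, and the change ran from -1.38 to -2.82 over the alternatives. CD14, the lipopolysaccharide co-receptor, had a change of -0.78 ± 0.19 (SE, adjusted p = 0.0184), a call that ended without 400 mg/kg/day replicate 4 (adjusted p = 0.0742) or 3 mg/kg/day replicate 4 (0.0768). The CD14 call also ended in the fit of the 8 arrays alone, with adjusted p up to 0.112 over all alternatives.

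Stellate cell and fibroblast markers had 3 of 17 tested genes lower, with 13 of the 17 negative and a median of -0.37. Their summed levels were 3376 to 4242 at 400 mg/kg/day and 6003 to 9231 at 3 mg/kg/day. BGN was the largest part of these sums, averaging 1587 at 400 mg/kg/day and 4249 at 3 mg/kg/day, so they mostly follow that gene. BGN, the proteoglycan biglycan, had 1268.2, 1346.1, 1981.5 and 1752.9 at 400 mg/kg/day and 3760.1, 4405.8, 5809 and 3019.9 at 3 mg/kg/day, and fell by 1.39 ± 0.26 (SE, adjusted p = 0.0022). SPARC, a matrix glycoprotein, had 106.3, 100.1, 106 and 97.8 at 400 mg/kg/day and 270.9, 283.6, 344.6 and 226.4 at 3 mg/kg/day, and fell by 1.31 ± 0.23 (SE, adjusted p = 0.00135). COL6A3 had a change of -0.83 ± 0.22 (SE, adjusted p = 0.0279) with overlapping groups, lost in 6 of the 8 fits without 1 animal (adjusted p up to 0.0963). In bulk tissue, fewer cells of a type and less RNA per cell cannot be told apart, and the part of cell makeup in the results above was not tested. Endothelial, T and NK cell, B cell, neutrophil and red cell markers had 0 called members of 11, 10, 5, 7 and 4 tested. Their medians were -0.31, 0.43, 0.26, 0.29 and 0.16. Among 7 cholangiocyte markers 6 were not called, 3 were negative and the median was 0.03. CLDN10, a tight junction claudin, rose by 2.22 ± 0.49 (SE, adjusted p = 0.00828) with overlapping groups. It averaged 260 at 400 mg/kg/day and 42.6 at 3 mg/kg/day, the latter near the filter's limit. Its change ran from 1.51 to 2.83 over the alternatives, and the call ended with the replicate block (adjusted p = 0.115). Hepatocyte markers had 3 of 13 lower (APOB, ASGR2 and CYP2E1) and a median of -0.16.

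Among all genes 1.89% rose and 2.31% fell, so lists of 8 to 33 genes hold few calls at that share, and a count of 0 in them is no result about the list. Cholesterol synthesis and uptake had 0 of 15 tested genes called and a median of 0.02, bile acid synthesis and transport 0 of 8 and 0.02, immediate early and stress genes 0 of 28 and -0.03, and DNA repair 0 of 33 and -0.01, medians near 0 of which the last pair turned above 0 under median scaling and that of cholesterol synthesis below 0 under quantile normalization. The genes with the smallest p in those lists were not called, among them ACAT2 with -1.20 ± 0.35 (SE, adjusted p = 0.0552), AKR1C4 with 0.95 ± 0.32 (SE, adjusted p = 0.104), ZFP36 with -0.55 ± 0.18 (SE, adjusted p = 0.0789) and ERCC3 with -1.20 ± 0.36 (SE, adjusted p = 0.0598). Glycolysis and glycogen genes had 1 of 24 higher (GBE1, the glycogen branching enzyme) and 1 lower (PKLR, liver pyruvate kinase), the TCA cycle 1 of 16 lower (IDH3B), apoptosis 1 of 23 higher (APAF1) and hepatic transcription factors 1 of 26 lower (PPARA). The calls of GBE1, PKLR, IDH3B and APAF1 ended in 2, 4, 6 and 5 of the 8 fits without 1 animal, with adjusted p up to 0.0742, 0.0832, 0.147 and 0.111, and 1 other IDH3B probe set had the opposite sign (0.49). Those of GBE1, IDH3B and APAF1 also ended in the fit of the 8 arrays alone. The control genes ACTB and GAPDH had differences of -0.17 ± 0.19 (SE, adjusted p = 0.714) and 0.36 ± 0.20 (SE, adjusted p = 0.361).

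The 8 animals at 150 and 30 mg/kg/day, none of which entered the contrast, were used to ask whether the same genes moved at intermediate doses. Of the 103 rising genes 82 had a higher mean at 150 than at 30 mg/kg/day, against 48.3% of all genes, and of the 126 falling genes 100 had a lower one, against 51.7% of all genes. The median differences were small, 0.20 and -0.20, and 0 of either set was called in that direction. Between 150 and 30 mg/kg/day 1 probe set was called (0.0133%), that of MT1G, and 721 had an unadjusted p under 0.05. In the 4-day animals, also separate from the contrast, 87 of the rising genes were higher at 400 mg/kg/day than on vehicle, against 44.7% of all genes, with a median of 0.60, and 104 of the falling genes were lower, against 55.3%, with a median of -0.46. At 4 days 22 probe sets were called (0.292%), among them those of NQO1, ACAA2, HADHB, AKR1B10 and TXN, higher, and PZP, lower. PZP averaged 235 at 400 mg/kg/day and 2929.7 on vehicle after 4 days (n = 2 each).

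Group means rose in order over 3, 30, 150 and 400 mg/kg/day for 53 of the 103 rising genes, against 6.22% of all genes, and fell in order for 87 of the 126 falling genes, against 7.25%, an order that the choice of genes by its end doses favours. FABP1 averaged 1509, 2444, 6006 and 11117 over these doses, and NQO1 276, 318, 749.6 and 1257. CYP2E1 averaged 17277, 18930.3, 7526 and 1479, so its means at 3 and 30 mg/kg/day were close and those at 150 and 400 lower. HADHB averaged 6902 at 150 and 6604 at 400 mg/kg/day, 1 of 2 rising genes whose mean at 150 mg/kg/day was the higher. The median level of the rising genes relative to the mean of the low-dose animals was 0.12 to 0.22 in the 15-day vehicle animals, 0.17 to 0.27 at 30 mg/kg/day, 0.36 to 0.48 at 150 mg/kg/day and 0.87 to 1.00 at 400 mg/kg/day. For the falling genes it was -0.29 to -0.37 on vehicle and -0.14 to -0.34, -0.36 to -0.49 and -0.94 to -1.05 at these doses. Vehicle animals thus overlapped those at 30 mg/kg/day in both sets. The genes were chosen on the 3 and 400 mg/kg/day animals, so a shift from the 3 mg/kg/day level does not measure a drug response at 30 mg/kg/day.

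**Figure D4:**
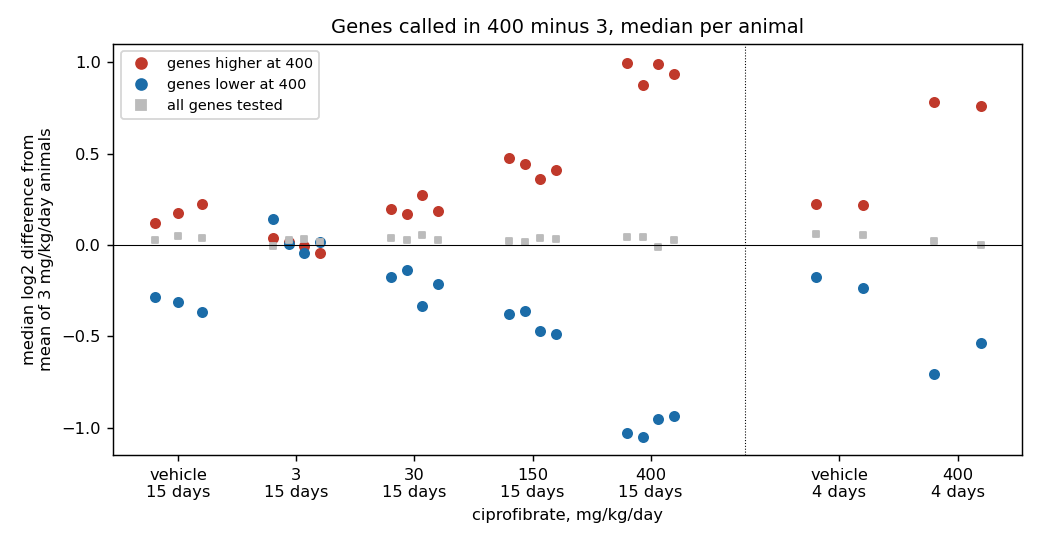
Median log2 difference from the mean of the 3 mg/kg/day animals, over the 103 genes higher at 400 mg/kg/day (red), the 126 lower (blue) and all genes tested (grey squares), for each of the 23 animals, with 15-day groups to the left of the dotted line and 4-day groups to the right. The genes were chosen on the 400 and 3 mg/kg/day animals of day 15. For the rising genes 15-day vehicle animals lie between 0.12 and 0.22 and animals at 150 mg/kg/day between 0.36 and 0.48.

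The change between 400 and 3 mg/kg/day differed from that between 150 and 30 mg/kg/day for 13 probe sets (0.173%) and 9 genes (0.165%). ALDH1A1 and ELOVL5 changed more upward across the wide step, and C8B, CFB, KLF11, MT1F, MT1G, MT1H and PPARA more downward. ELOVL5 averaged 114, 220.1, 229.6 and 572 over the 4 doses, with a change of 0.05 ± 0.24 between the middle doses, and the difference of the changes was 2.14 ± 0.34 (SE, adjusted p = 0.00609). ALDH1A1 averaged 1926, 3175, 2708 and 6677, a difference of 2.00 ± 0.33 (SE, adjusted p = 0.00652). CFB averaged 6904, 5504, 5401 and 3327.

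PPARA and the metallothioneins did not follow the dose in order. PPARA averaged 884, 531, 857 and 461, high at 3 and 150 mg/kg/day and low at 30 and 400 mg/kg/day, with a difference of the changes of -1.61 ± 0.26 (SE, adjusted p = 0.00609). MT1G averaged 1064, 600.0, 5037 and 339, so its highest mean was at 150 mg/kg/day and its lowest at 400 mg/kg/day, and the difference was -4.65 ± 0.66 (SE, adjusted p = 0.00261). MT1H averaged 15332, 12219.9, 20191 and 8508 with a difference of -1.57 ± 0.24 (SE, adjusted p = 0.00565). The fall of MT1G between 400 and 3 mg/kg/day, with 230.1, 252.4, 705.6 and 168.1 at 400 mg/kg/day and 610.5, 1026.6, 783 and 1837.3 at 3 mg/kg/day and 1 high-dose animal inside the low-dose range, ended in 6 of the 8 fits without 1 animal (adjusted p up to 0.127).

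**Figure D5:**
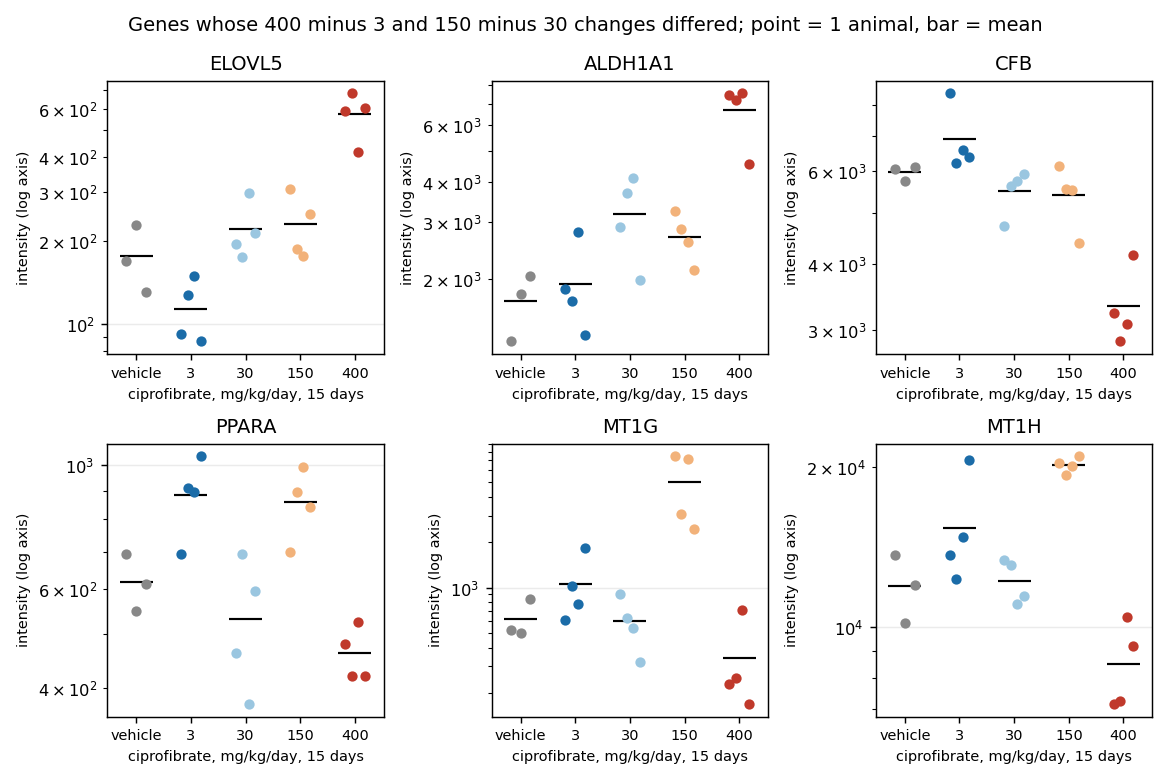
Intensity by dose after 15 days, on log axes, of 6 genes whose change from 3 to 400 mg/kg/day differed from that from 30 to 150 mg/kg/day. Each point is 1 animal and each bar a group mean, with vehicle at the left. ELOVL5 and ALDH1A1 have their highest means and CFB its lowest mean at 400 mg/kg/day, and MT1G averages 5037 at 150 mg/kg/day.

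With limma, 0 probe sets were called between 3 mg/kg/day and vehicle at 15 days, and 757 of 7535 had an unadjusted p under 0.05. Some genes that fell in the contrast had a higher mean at 3 mg/kg/day than on vehicle, and these values share animals with the contrast. SDHA averaged 1183 on vehicle, 2279.6 at 3 mg/kg/day and 1083 at 400 mg/kg/day, with changes from vehicle of 0.91 ± 0.16 (SE, adjusted p = 0.0506) at 3 mg/kg/day and -0.13 ± 0.16 (SE, adjusted p = 0.845) at 400 mg/kg/day. APOB averaged 6142, 12366 and 4953 in these groups, and its change from vehicle at 400 mg/kg/day was -0.33 ± 0.26 (SE, adjusted p = 0.696). HSPA5 averaged 605, 1293 and 287, with a change from vehicle at 400 mg/kg/day of -1.07 ± 0.41 (SE, adjusted p = 0.234). For PPARA, RPS3 and BGN the change from vehicle at 400 mg/kg/day was likewise not called (-0.41 ± 0.20, -0.42 ± 0.17 and -0.84 ± 0.28). Between 400 mg/kg/day and vehicle 161 probe sets were called (2.14%), and for CYP2E1, HGFAC, PZP, FADS2, SCD, FABP1 and NQO1 both contrasts gave a call in the same direction.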

How the data were processed

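Liver RNA of 23 monkeys was measured on 1 human-design array each, and arrays were grouped by the dose and days in their titles. The authors made the deposited intensity of each probe set, a linear measure, with MAS5, as the submitters' processing notes record. MAS5's version and settings are not given in the sources used here. Array means trimmed by 2% at either end lay between 150.065 and 150.08, so the arrays were taken as already scaled. Of 12625 probe sets, 67 controls were set aside. Values were converted to log2 after adding 16, and the 7535 of 12558 probe sets with a mean at or above the 40th percentile (log2 5.80, intensity 39.7) were tested, while 5023 were not. Probe sets naming several genes (545) or none (1119) represented no gene.

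A model with 1 mean for each of the 7 groups was fitted to all arrays with limma 3.58.1 in R 4.3.3 (intensity trend, two-sided, 16 residual and 6.63 prior degrees of freedom). P values were adjusted by Benjamini-Hochberg over all probe sets tested. SE is from that fit and SD is over a group's arrays. The script was tested on simulated data. Titles number the arrays of a group as biological replicates, read here as 1 animal each, and the number of arrays limits the precision.

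The members and the 38 gene lists (1152 genes, 742 tested) were chosen with earlier results of these data known. Genes named are the 15 largest rises and falls with separate groups, up to 5 called members per list and direction by p (or 2 uncalled), the 5 smallest p for the difference of dose steps, and a fixed set of PPAR-alpha, lipid and control genes. KLF11 falls outside that rule and was named after its values were seen. Some genes of the lists are not analysed here. Alternatives covered the pseudocount, filter, scaling, arrays fitted, variance options, a replicate block and leaving out each animal.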

Additional observations from a re-analysis of the deposited data

Results flagged for a closer look

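For each named gene, the highest or lowest animal was compared with the nearest of the other 3 in its group, and the group was marked where that gap, as a share of the group's range on the log2 scale, passed Dixon's critical value. Of 264 groups of 4 examined 16 were marked, and chance alone marks about 13.2. In 400 mg/kg/day replicate 4, ALDH1A1 (4538.4), DUSP6 (49.2), FADS2 (647) and ITIH2 (939.8) were the lowest of their group and SLC39A14 (1194.8) the highest. In 400 mg/kg/day replicate 1, CPT1A (129.7) and CYP2E1 (244.1) were the lowest, and in 400 mg/kg/day replicate 2 CFHR4 (22.8) was.

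Among the low-dose animals, replicate 4 was the lowest for CCL15 (489.7) and GOT2 (420.1) and the highest for MT1F (23131.2) and PSMB4 (533.3). Replicate 3 was the lowest for F12 (3044.1) and GART (136.7) and the highest for GNMT (1749.3), and replicate 1 was the highest for HPX (13842.5). CYP2E1, the gene with the largest fall among separate groups, remained lower at 400 mg/kg/day without its marked animal, by a log2 change of -3.17.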

How the results depend on the processing

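The number of probe sets called between 400 and 3 mg/kg/day, 315 as reported, lay between 241 and 351 under the alternatives to the pseudocount, filter, scaling, arrays fitted and variance options, and between 223 and 282 when each animal was left out in turn. With the replicate block, fitted to the 8 arrays alone, it was 159, of which 143 were among the 315. No pairing by replicate number was seen over all probe sets tested. Deviations of same-numbered animals from their group means correlated at -0.03 to 0.01, and 0 arrays correlated best with their own number. A pairing confined to some probe sets was not tested. Between 150 and 30 mg/kg/day 1 probe set was called, 4 with a pseudocount of 64 and 2 without the intensity filter. The difference between the 2 dose steps gave 13, and 10 to 16 under its 3 alternatives. Between 3 mg/kg/day and vehicle 0 were called under all 3 alternatives. Of 132 named genes 103 were called, 68 of them in every fit without 1 animal and 53 in every setting, and 0 changed direction while called. List medians close to 0 turned from negative to positive under median scaling for DNA repair (0.05), TCA cycle (0.00), ribosomal protein (0.01), hepatic transcription factor (0.02), immediate early (0.03) and solute carrier genes (0.04), and under quantile normalization for DNA repair (0.01), while cholesterol genes turned negative there (-0.02). With 4 animals a group, small changes can go uncalled, and dim probe sets such as FADS2 at 3 mg/kg/day have no level shown above background.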
